A study of Mus musculus with 3 samples.

Results

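The genes described here are 10 members of the ATF4 stress response and of serine synthesis: Atf4, Ddit3, Chac1, Trib3, Asns, Phgdh, Psat1, Psph, Shmt2 and Mthfd2. They were chosen by symbol, and every array probe whose RefSeq accession belongs to one of these symbols was taken. All 10 genes were on the array, among 21153 gene symbols, through 14 probes. Atf4, Phgdh, Psat1 and Psph had 2 probes each and the other genes had 1. All 14 probes were well above background in both conditions on all 3 arrays, and so all 10 genes were among the 14713 genes tested.

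ATF4 is a transcription factor whose mRNA is translated more when a kinase phosphorylates the initiation factor eIF2 alpha, which happens when amino acids, haem or folding capacity in the endoplasmic reticulum run short. Its targets include genes for amino acid synthesis and import and for the charging of tRNA, together with Ddit3, which encodes the partner factor CHOP. Serine is made from a glycolytic intermediate by PHGDH, PSAT1 and PSPH, and SHMT2 and MTHFD2 pass its side-chain carbon into the mitochondrial folate pool that feeds purine synthesis in dividing cells.

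RNA was measured in embryoid bodies, which are aggregates of differentiating embryonic stem cells, at day 8 of a cardiac differentiation protocol. One condition was Hopx-/- embryoid bodies given 12.5 µM XAV939, a tankyrase inhibitor used to lower Wnt signalling, and the other was Hopx+/- embryoid bodies. On each of 3 two-colour arrays, which the labels call biological replicates, one RNA of each kind was hybridised together. Hopx encodes a small homeodomain protein of the developing heart. The stem cell lines came from Hop+/- and Hopx-/- blastocysts, were kept on feeder cells, and both conditions were plated in a cardiac differentiation medium that held VEGF, bFGF, FGF10, ascorbic acid and, as a source of glutamine, 2 mM Glutamax. The labels do not say how many lines of each genotype were used. The null genotype and the inhibitor always occur together on these arrays, so the effects of one and of the other cannot be told apart. The comparison asks how expression differs between Hopx-null cultures with the inhibitor and heterozygous cultures.

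Each value below is a log2 ratio of the null cultures with inhibitor over the heterozygous cultures, so that a value of 1 is a 2-fold higher level, and every ± is the SD over the 3 arrays. The labels place the null RNA in the Cy5 channel on every array, but the raw Cy5 over Cy3 ratios of replicate 3 ran opposite to those of replicates 1 and 2 over all probes (r = -0.79 and r = -0.88, against 0.82 between replicates 1 and 2). The authors' processed values for replicate 3 have the sign of Cy3 over Cy5, and its ratio was turned to match them. After turning, the ratios of the 3 arrays correlated at 0.97, 0.90 and 0.92 across the genes tested. The turning itself made the correlations with replicate 3 positive. All of them would be the same with every array reversed, so they do not bear on the direction. The direction rests on the labels of replicates 1 and 2 and on the sign of the authors' values, and is likely rather than settled. With the sign of all 3 arrays reversed, 2 of the 10 genes would be higher and 7 lower, and 4853 of all genes would be higher and 4638 lower. With replicate 3 as labelled, 0 of the 10 genes and 0 of all genes passed the test. Hopx, the deleted gene, had ratios of -2.65, -2.75 and -2.73, with a mean of -2.71 ± 0.05 (SD, n = 3). The labels do not say whether the deletion covers this probe. The share of probes well above background was 56.6% to 66.6% for the null RNA and 61.6% to 68.0% for the heterozygous RNA, and the number of arrays limits the precision.

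Promoter windows from RefSeq (build GRCm38.p6), which run from 250 bases before to 50 bases after the annotated start, were searched on both strands for TGATGNAA, a form of the composite element that ATF4 and C/EBP proteins are known to bind. A window was given for all 10 genes, and 3 of them held a match: Chac1, Trib3 and Asns. These are shown with Ddit3, which held no match, because the first 3 were higher in the null cultures with inhibitor and Ddit3 was lower. The other members called higher, Phgdh, Psat1, Shmt2 and Mthfd2, held no match either. The sequences were chosen by direction, so they cannot show whether a match goes with it. Capitals mark the match, and each sequence reads 5′ to 3′ on the strand of the gene. The Chac1 sequence is chr2:119350992-119351241 on the plus strand, the 250 bases before the start, with its match at -193 to -186 on the opposite strand. The Asns sequence is chr6:7693210-7693459 on the minus strand, the 250 bases before the start, with its match at -23 to -16. The Ddit3 sequence is chr10:127290543-127290792 on the plus strand, the 250 bases before the start. The Trib3 sequence is chr2:152344028-152344057 on the minus strand, 30 bases just after the start, with its match at 15 to 22 on the opposite strand.
Chac1: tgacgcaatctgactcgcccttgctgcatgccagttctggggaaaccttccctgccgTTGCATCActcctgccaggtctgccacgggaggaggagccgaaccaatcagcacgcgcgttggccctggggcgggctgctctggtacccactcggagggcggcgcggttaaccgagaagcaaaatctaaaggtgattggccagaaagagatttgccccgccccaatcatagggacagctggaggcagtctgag
Asns: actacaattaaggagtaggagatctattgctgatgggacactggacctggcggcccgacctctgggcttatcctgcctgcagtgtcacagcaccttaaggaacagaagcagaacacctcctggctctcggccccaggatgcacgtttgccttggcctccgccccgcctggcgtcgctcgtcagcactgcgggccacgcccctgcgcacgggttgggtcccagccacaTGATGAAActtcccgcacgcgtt
Ddit3: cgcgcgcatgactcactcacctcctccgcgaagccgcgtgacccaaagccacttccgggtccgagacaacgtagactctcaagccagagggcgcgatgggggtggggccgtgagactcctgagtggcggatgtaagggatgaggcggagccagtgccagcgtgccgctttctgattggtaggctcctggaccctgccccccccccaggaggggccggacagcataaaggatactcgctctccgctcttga
Trib3: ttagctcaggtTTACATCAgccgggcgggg

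The match in Chac1 was also the only one of the 3 to have the narrower form TGATGCAA, which is a subset of the first motif. Of all 32851 promoter windows of this length, 3.97% held TGATGNAA and 0.895% held TGATGCAA. Among 11669 tested genes with a window, 2.8% held TGATGNAA, and of those 327 genes 102 were higher and 127 lower, with a median log2 ratio of -0.10. The E-box CACGTG, which reads the same on both strands, was in 7.15% of all windows. Per gene, it was in 11.2% of the 11669 tested genes with a window and in 0 of the 10 genes. A set of 10 genes is too small to tell 0 from that share. A match is a description of these letters, not a measured binding site, and a window without one says only that the letters are not in that window.

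Of the 10 genes, 7 were higher in the null cultures with inhibitor, 2 were lower and 1 did not pass. The largest rises were in Chac1 (4.48-fold) and Mthfd2 (4.15-fold), and Ddit3 had the larger of the 2 falls (2.33-fold lower). The test was limma's moderated test of the mean against 0, adjusted over all 14713 genes, with a threshold of 0.05. By the same test 31.5% of all genes were higher, 33.0% were lower and 64.5% changed in either direction, so most of the genes tested passed it. The median log2 ratio of the 10 genes was 0.74, against -0.01 over all genes. With median centring in place of loess, 3031 of the 14713 genes were higher and 2019 lower, and of the 10 genes 7 were higher and 1 lower. Among only the genes called, the share that was higher was then 60.0% rather than 48.9%. The normalized levels of the conditions did not overlap for 9 of the 10 genes, against 68.0% of all genes tested, and Atf4 was the exception. In such bulk cultures, a lower proportion of a cell type that expresses a gene and less of its RNA per cell cannot be told apart.

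**Figure D1:**
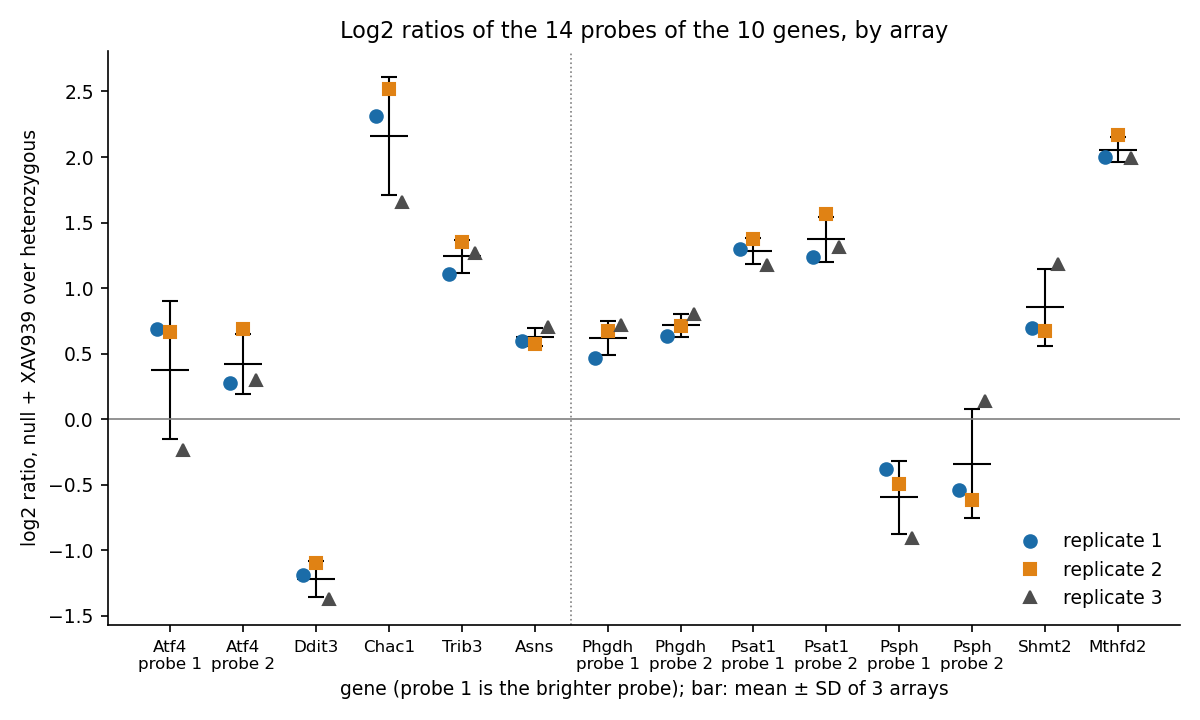
Log2 ratio (vertical axis) of each of the 14 probes of the 10 genes on replicates 1, 2 and 3, with the mean and SD of the 3 arrays as bars and the brighter probe of a gene as probe 1. Chac1 and Mthfd2 lie highest, Ddit3 lies lowest, and the brighter Atf4 probe and the dimmer Psph probe have replicate 3 on the other side of 0 from replicates 1 and 2.

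Atf4 itself gave no settled value. Its brighter probe had log2 ratios of 0.69, 0.67 and -0.24 on replicates 1, 2 and 3. Replicate 3 thus ran opposite to the others, and the mean of 0.37 ± 0.53 (SD, n = 3) did not pass (limma, adjusted p = 0.0907). This probe was close to the limit of the scanner: its null signal was 65523 and 65528 on replicates 1 and 2, where the limit was 65529, and 34853.5 on replicate 3, although no spot was marked as saturated. The heterozygous signal of the same probe was 21703, 21059 and 54070. The dimmer Atf4 probe had log2 ratios of 0.28, 0.69 and 0.30, with a mean of 0.42 ± 0.23 (SD, n = 3). All 3 arrays were thus above 0, and the levels of the conditions did not overlap. In the fit that took the dimmest tested probe of each gene, Atf4 passed (limma, adjusted p = 0.00865), as did 63.2% of all genes. The brighter probe passed without replicate 3, at 0.68 (limma, adjusted p = 8.41e-05), and was at 0.22 and 0.23 without replicates 1 and 2. The authors' processed values for this probe were 0.668, 1.08 and -0.204.

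Ddit3, which encodes the stress factor CHOP, fell. Its log2 ratios were -1.19, -1.10 and -1.37, below 0 on every array. The mean was -1.22 ± 0.14 (SD, n = 3), 2.33-fold lower in the null cultures with inhibitor (limma, adjusted p = 1.43e-05). Its normalized log2 level was 8.44, 8.18 and 8.26 in the null cultures and 9.63, 9.28 and 9.63 in the heterozygous ones, with no overlap. The size of the fall depended on the processing. Apart from replicate 3 as labelled, Ddit3 passed under all 16 other settings, with log2 ratios from -1.38 to -0.85. The smallest fall came with the local backgrounds that the scanner software marks as outliers kept (limma, adjusted p = 0.0349).

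Trib3 encodes a pseudokinase that is a known target of ATF4 and CHOP, and it moved the other way from Ddit3. Its log2 ratios were 1.10, 1.35 and 1.27, and its mean was 1.24 ± 0.13 (SD, n = 3). That was a 2.37-fold rise (limma, adjusted p = 1.18e-05). Chac1, whose product breaks down glutathione, had log2 ratios of 2.31, 2.52 and 1.66. The smallest of these was on replicate 3. The mean was 2.16 ± 0.45 (SD, n = 3), a 4.48-fold rise (limma, adjusted p = 5.67e-06). The normalized log2 level of Chac1 was 11.56, 11.83 and 11.22 in the null cultures and 9.25, 9.32 and 9.56 in the heterozygous ones, so every null level was above every heterozygous level.

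Asns encodes asparagine synthetase, which makes asparagine from aspartate and glutamine. Its log2 ratios were 0.60, 0.58 and 0.71, a narrow range over the 3 arrays. The mean of 0.63 ± 0.07 (SD, n = 3) was a 1.55-fold rise (limma, adjusted p = 0.000516). Its fold was smaller than those of Chac1 and Trib3, the other members with a TGATGNAA match.

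**Figure D2:**
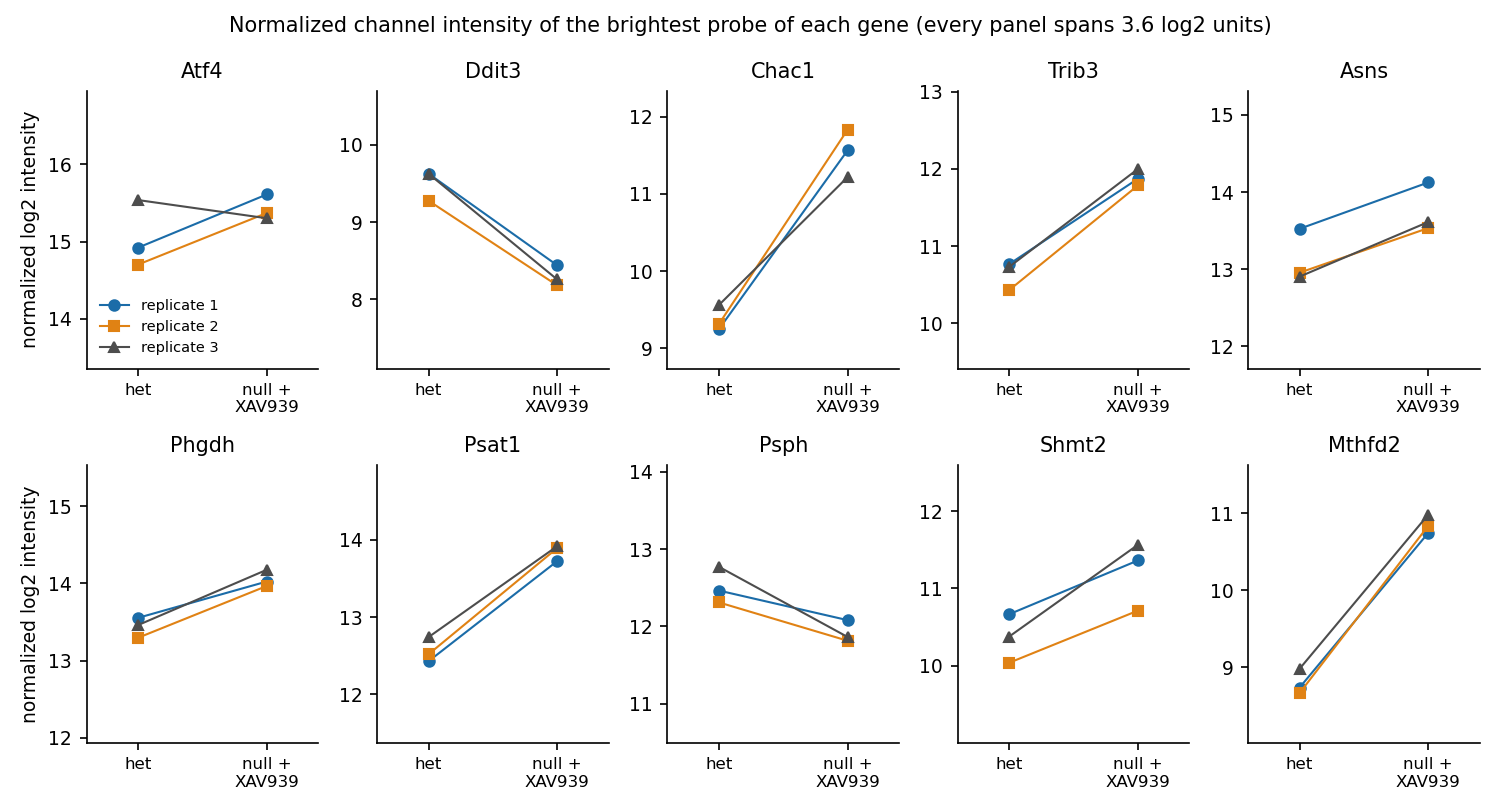
Normalized log2 intensity (vertical axis, the same span in every panel) of the brightest probe of each of the 10 genes in heterozygous cultures and in null cultures with XAV939, with a line joining both channels of each of the 3 arrays. Lines slope up on all 3 arrays for 7 genes and down for Ddit3 and Psph, and the Atf4 line of replicate 3 slopes against the other 2.

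Serine is made in a pathway of 3 enzymes, and their genes did not move together: Phgdh and Psat1 rose and Psph fell. Phgdh encodes the dehydrogenase of the first step. Its brighter probe had log2 ratios of 0.47, 0.67 and 0.72, with a mean of 0.62 ± 0.13 (SD, n = 3), a 1.54-fold rise (limma, adjusted p = 0.00074). Its second probe gave 0.63, 0.71 and 0.80, with a mean of 0.72 ± 0.09 (SD, n = 3). Both probes were above 0 on every array.

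Psat1 encodes the aminotransferase of the second step. Its brighter probe had log2 ratios of 1.30, 1.37 and 1.18, and its second probe 1.24, 1.56 and 1.31. The means were 1.28 ± 0.10 and 1.37 ± 0.17 (SD, n = 3), and the difference between the probes was within their spread over the arrays. The brighter probe's value was a 2.43-fold rise (limma, adjusted p = 8.51e-06). Psat1 had the largest rise among the genes of the serine pathway proper.

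Psph encodes the phosphatase of the last step. Its brighter probe had log2 ratios of -0.38, -0.50 and -0.91, below 0 on every array. The mean was -0.60 ± 0.28 (SD, n = 3), 1.51-fold lower (limma, adjusted p = 0.00254). Its second probe gave -0.54, -0.61 and 0.14, so that replicate 3 stood on the other side of 0, and its mean was -0.34 ± 0.42 (SD, n = 3). In the fit on the dimmest probes Psph did not pass (limma, adjusted p = 0.0642). The fall of the brighter probe also did not pass with the local backgrounds that the scanner software marks as outliers kept, at -0.53 (adjusted p = 0.0613), nor after centring each array on its median, at -0.32 (adjusted p = 0.401).

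Shmt2 encodes the mitochondrial enzyme that splits serine into glycine and a one-carbon unit. Its log2 ratios were 0.70, 0.67 and 1.19, highest on replicate 3. The mean of 0.85 ± 0.29 (SD, n = 3) was a 1.81-fold rise (limma, adjusted p = 0.000361). Mthfd2 encodes the mitochondrial dehydrogenase and cyclohydrolase that takes the one-carbon unit onward, and it is known for high levels in embryonic and dividing cells. Its log2 ratios were 2.00, 2.16 and 2.00. The mean of 2.05 ± 0.10 (SD, n = 3) was a 4.15-fold rise (limma, adjusted p = 6.94e-07), and its spread was small beside that of Chac1. Its normalized log2 level was 10.74, 10.84 and 10.98 in the null cultures and 8.74, 8.67 and 8.98 in the heterozygous ones.

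Replicates 1 and 2, as turned, carry the null RNA in Cy5 and replicate 3 carries it in Cy3. Dye orientation and replicate 3 therefore cannot be told apart. The null signal of the brighter Atf4 probe was near the scanner limit on replicates 1 and 2, and any bearing of that limit on its difference was not tested. The mean of replicates 1 and 2 was above replicate 3 by 0.91 on the log2 scale for this probe and by 0.19 for the dimmer one. It was above replicate 3 by 0.76 for Chac1 and by 0.47 for the brighter Psph probe. For the dimmer Psph probe the difference had the opposite sign, at -0.72. For Shmt2 the difference was -0.50, and for the other 6 genes it lay between -0.15 and 0.23. With dye orientation as a term in the fit, an alternative added after seeing the data, 8 of the 10 genes were higher and 2 lower. In that fit 5332 of all 14713 genes were higher and 5716 lower, more than in the reported fit. Atf4 was at 0.22 in it (limma, adjusted p = 0.0220).

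The isozymes of the folate enzymes were also higher. Shmt1, the cytosolic counterpart of Shmt2, had a mean of 0.53 ± 0.24. Mthfd1, the cytosolic enzyme with all 3 activities, had a mean of 1.14 ± 0.13. Mthfd1l, which completes the mitochondrial branch by releasing formate, was at 0.45 ± 0.29, and Mthfd2l, the close relative of Mthfd2, was at 0.79 ± 0.31 (SD, n = 3 for each). All 4 passed (limma, adjusted p between 1.96e-05 and 0.0117), and Shmt1 did not with the marked backgrounds kept (adjusted p = 0.111). Mthfd2 had a larger mean ratio than any of these 4.

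Upstream of ATF4, RNA of the 4 eIF2 alpha kinases did not move one way. Eif2ak1, the haem-regulated kinase, was higher (0.89 ± 0.24, SD, n = 3). Eif2ak3, which encodes the endoplasmic reticulum kinase PERK, was lower (-1.03 ± 0.39), with ratios of -0.87, -0.74 and -1.47. Eif2ak2, the kinase activated by double-stranded RNA, was at -0.61 ± 0.18 and Eif2ak4, the kinase GCN2 that senses uncharged tRNA, at -0.41 ± 0.14, and both passed as lower. The falls of Eif2ak2, Eif2ak3 and Eif2ak4 did not pass with the marked backgrounds kept (limma, adjusted p = 0.0936, 0.0692 and 0.110). With median centring Eif2ak2 (adjusted p = 0.132) and Eif2ak4 (-0.20, adjusted p = 0.570) did not pass by limma either, nor did Eif2ak4 with the authors' processed values (adjusted p = 0.0965). These arrays measure RNA, so kinase activity and phosphorylation of eIF2 alpha were not measured. Of the 19 genes listed as eIF2 alpha kinases, their regulators, phosphatases and the exchange factor, 6 were higher and 7 lower, with a median of 0.09. These shares, 31.6% and 36.8%, were near the 31.5% and 33.0% of all genes tested. The number lower was 3 with the marked backgrounds kept and 2 with median centring. Eif2b3, a subunit of the exchange factor, had the highest ratio of this list (0.98 ± 0.15). Impact, an inhibitor of GCN2, was at -0.91 ± 0.25, a fall that did not pass with median centring (limma, adjusted p = 0.0985), and Dnajc3, an inhibitor of PERK, was at -0.93 ± 0.05.

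Other known target genes of ATF4 and CHOP were split evenly. Of 29 listed, 28 were tested, 12 were higher and 12 lower, with a median of 0.06 against -0.01 for all genes. That was 42.9% in each direction, against 31.5% higher and 33.0% lower of all genes tested. The largest rises were in Cth, which makes cysteine from cystathionine (1.60 ± 0.28), Fgf21, a secreted stress hormone, and Slc3a2, the heavy chain of amino acid transporters (0.64 ± 0.15). In the heterozygous cultures the Fgf21 probe was above background on 0 of 3 arrays, and its level under the reported processing was at least 1.66-fold higher in the null cultures. With the marked backgrounds kept its log2 ratio was 0.31 and did not pass (limma, adjusted p = 0.198). The largest falls were in Jdp2, a repressor of the AP-1 and ATF family (-1.75 ± 0.15), Tnfrsf10b, a death receptor induced by CHOP (-1.37 ± 0.12), and Atf3 (-1.27 ± 0.13), all SD, n = 3. These genes were named as the extremes of each direction, so the falls share the sign of Ddit3 and the rises that of Chac1 and Trib3. A grouping of targets by direction was not tested. With median centring, 7 genes of this list were higher and 5 lower, and with the marked backgrounds kept 5 were higher. TGATGNAA was in 8 of the 25 listed genes that have a window, of which 3 were higher and 4 lower.

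Genes of the ATF6 and XBP1 arms of the unfolded protein response moved both ways. Of 25 genes of these arms and of endoplasmic reticulum chaperones, 4 were higher and 11 lower, with a median of -0.16, although the number lower was 2 with median centring and 6 with the marked backgrounds kept. The 11 include Crebrf, named after its value was seen, whose probe was above background on 0 of 3 arrays in the null cultures. It was tested only through its heterozygous signal. The highest ratios were those of Atf6b, a relative of the factor ATF6 (0.87 ± 0.20), and of Sdf2l1 and Creld2, which are induced by endoplasmic reticulum stress (0.56 ± 0.19 and 0.40 ± 0.09). All 3 passed, but Atf6b did not with the marked backgrounds kept (limma, adjusted p = 0.0849), and Creld2 did not without replicate 2 (limma, adjusted p = 0.0821). Among the lower genes, Xbp1, the factor of one arm, was at -1.04 ± 0.21 (SD, n = 3). Derl1 and Edem1, which serve the disposal of misfolded proteins, were at -0.99 ± 0.09 and -0.90 ± 0.45. The calls of Xbp1 and Edem1 were lost with median centring, that of Edem1 also with the marked backgrounds kept, and that of Derl1 with its dimmest probe, at -0.16. Hspa5, the main chaperone of the compartment, was at -0.10 ± 0.31 and did not pass (limma, adjusted p = 0.529), and it was named after its value was seen. Among 11 mitochondrial chaperones and proteases 6 were higher and 1 lower, with a median of 0.34. Hspd1 and Hspe1, partners in one folding chamber, were at 1.25 ± 0.44 and 1.06 ± 0.20. The lower gene was Htra2, a protease (-0.60 ± 0.20), whose call was lost with median centring.

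**Figure D3:**
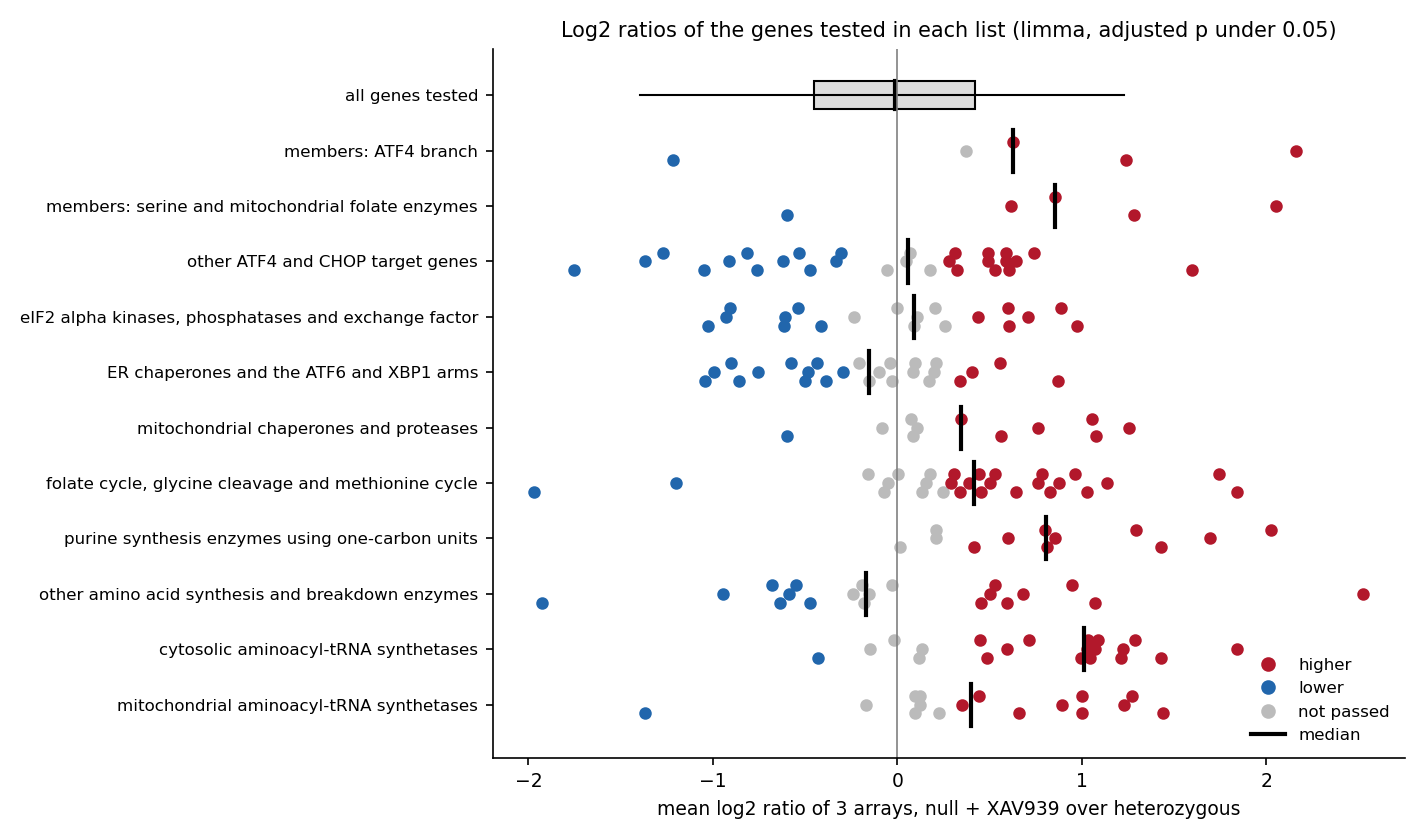
Mean log2 ratio over 3 arrays (horizontal axis) of every tested gene of the members and of each related list, coloured by the limma call, with the list median as a black bar. The box for all genes tested runs from the 25th to the 75th percentile, with its line at the median of -0.01 and whiskers at the 5th and 95th percentiles. Purine synthesis and cytosolic aminoacyl-tRNA synthetase genes have medians of 0.80 and 1.01, and other ATF4 and CHOP target genes of 0.06.

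In the pathways that consume the products of Shmt2 and Mthfd2, more genes were higher than lower. Of 30 listed genes of the folate cycle, glycine cleavage and the methionine cycle, 28 were tested, and 18 were higher and 2 lower, with a median of 0.42. The number higher was 12 with the marked backgrounds kept and 12 with median centring. Cbs, the first enzyme from homocysteine to cysteine, was at 1.84 ± 0.11 and Mat2a, which makes S-adenosylmethionine, at 1.74 ± 0.08 (SD, n = 3). The 2 lower genes were Folr1, a folate receptor (-1.97 ± 0.03), and Aldh1l1, which removes one-carbon units in the cytosol (-1.20 ± 0.03). Of 12 enzymes of purine synthesis, 9 were higher and 0 lower at this threshold, with a median of 0.80. The lowest ratio among these 12 was 0.02, and the largest rises were in Prps1 (2.03 ± 0.30), Gart (1.70 ± 0.26) and Pfas (1.43 ± 0.12).

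Genes of amino acid supply, the role of Asns, and genes of tRNA charging gave different pictures. Of 20 tested enzymes of other amino acid synthesis and breakdown, 8 were higher and 7 lower, with a median of -0.17. That was 40% and 35%, against 31.5% and 33.0% of all genes tested. With median centring 2 of these enzymes were lower. Bcat1, the cytosolic aminotransferase of branched-chain amino acids, had the highest ratio (2.53 ± 0.16), and Glul, glutamine synthetase, the lowest (-1.93 ± 0.12). Of 20 cytosolic aminoacyl-tRNA synthetases, 15 were higher and 1 lower, with a median of 1.01. Aars1 (1.84 ± 0.08), Nars1 (1.43 ± 0.09) and Farsb (1.29 ± 0.16) rose the most. Qars1 was the 1 that fell (-0.43 ± 0.09), and its call was lost without replicate 2 and with median centring. TGATGNAA was in 5 of the 13 cytosolic synthetase genes with a window, and all 5 (Aars1, Gars1, Iars1, Tars1 and Yars1, the last 4 named after their values were seen) were higher. Of all 20 genes of this list, with or without the motif, 15 were higher. Of all 327 tested genes with the motif, 102 were higher and 127 lower. Of 16 tested mitochondrial synthetases, 9 were higher and 1 lower, with a median of 0.40. Lars2 had the highest ratio of these (1.44 ± 0.07), and Wars2 was the 1 that fell (-1.37 ± 0.34).

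Markers of several cell types also differed between the conditions. All 12 markers of pluripotent cells and the epiblast were higher, with a median of 2.17, and their mean normalized log2 level was 12.49 to 12.63 in the null cultures and 10.16 to 10.50 in the heterozygous ones. All 12 endoderm markers were lower, with a median of -3.76 and mean levels of 9.29 to 9.87 against 13.08 to 13.16. All 12 cardiomyocyte markers were lower, with a median of -1.76 and mean levels of 10.69 to 10.92 against 12.47 to 12.64. Of 9 tested markers of proliferating cells, 7 were higher and 0 lower, with a median of 0.82 and mean levels of 13.35 to 13.52 against 12.45 to 12.62. Of 8 fibroblast and feeder cell markers, 1 was higher and 5 were lower, with mean levels of 10.35 to 10.68 against 11.30 to 11.80. Endothelial markers were 6 of 8 higher and 1 lower (Tek, -0.34 ± 0.28, whose call was lost under 7 of 16 other settings), and blood markers 5 of 8 tested higher and 1 lower. With the marked backgrounds kept, 3 endothelial markers were higher and 0 lower by limma, 2 blood markers were higher and 1 lower, and 3 fibroblast and feeder cell markers were lower. Their mean levels were 8.90 to 9.17 against 8.43 to 8.54 for endothelium and 10.43 to 10.87 against 9.89 to 9.98 for blood. The part of these marker differences in the ratios of the 10 genes was not tested.

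**Figure D4:**
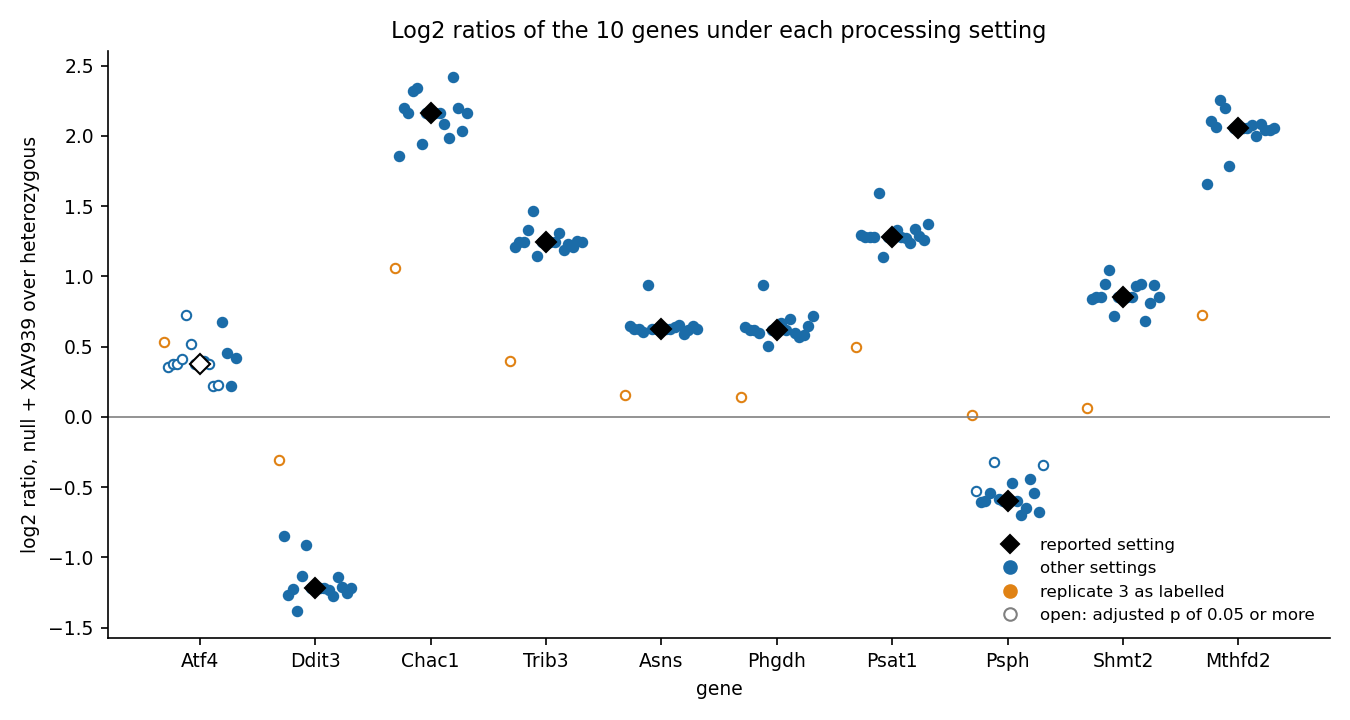
Log2 ratio (vertical axis) of each of the 10 genes under the reported processing (black diamond), 16 other settings (blue) and replicate 3 as labelled (orange), with open symbols where limma's adjusted p was 0.05 or more. Apart from replicate 3 as labelled, 8 genes keep filled symbols throughout, while Atf4 has both open and filled symbols and Psph has 3 open ones.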

How the data were processed

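RNA of the paired conditions was compared within each of 3 two-colour arrays. The deposited median spot and background intensity values were extracted by the authors with Agilent Feature Extraction (version 8.5.1.1 per the submitters' processing notes, but 11.5.1.1 as the headers of the files give it). The log ratio it deposited is a log10 value of red over green, and the remaining columns used are 0 or 1 marks per the file headers. The authors' processed values were judged to be log2 ratios from their fit to log2 Cy5 over Cy3 (slopes 0.688, 0.799 and -0.797, r 0.885, 0.945 and -0.940). Their column medians were 0.086, -0.08 and 0.053, and their normalization and centring are not given in the sources used here.

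Of 39429 probes, 28025 had 1 symbol, 11404 none and 0 several by RefSeq accession, and 19 of 267 list entries were matched under an updated symbol. Intensities were corrected by normexp (offset 50), with local backgrounds marked as outliers replaced by the channel median, and normalized by loess with limma 3.58.1 in R 4.3.3. Probes were tested if, on each of the 3 arrays, at least 1 channel was well above background, and each gene took its brightest probe. Limma's moderated test (8.66 degrees of freedom, 6.66 from the prior) compared the mean log2 ratio with 0, with Benjamini-Hochberg adjustment over 14713 genes at 0.05, and was tested on simulated data. The median SD over the arrays was 0.166. P-values measure only the spread between these arrays.

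The members and gene lists were chosen with earlier results of these data known, and the lists were written from general knowledge. All members were named, up to 3 genes per direction from each pathway list that passed with 1 sign on all arrays, the isozymes and the eIF2 alpha kinases. From the marker lists the counts and levels are given. Alternatives covered orientation, background, normalization, filters, probe choice, slide, dye and each array left out.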

Additional observations from a re-analysis of the deposited data

How the results depend on the processing

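With replicate 3 as labelled, 0 genes were higher and 0 lower of all genes by limma (13 and 27 at an unadjusted p under 0.05), 0 and 0 of the 10 members, and the log2 ratio changed sign for Psph (0.0098), Edem1 (0.042), Tek (0.047), Shmt1 (-0.0034) and Mthfd1l (-0.072). This setting averages ratios of opposite sign. With the marked local backgrounds kept, 2663 genes were higher and 2253 lower and 1 member was lower, and with median centring 3031 were higher and 2019 lower and 1 member was lower. The dimmest probe of each gene, chosen after the data were examined as were the slide and dye terms, left 1 member lower and reversed Eif2s2 (-0.34). The causes were not tested. Leaving out one array in turn gave 3510 to 5281 genes higher and 3716 to 5343 lower, with 7 to 8 members higher and 2 lower. Apart from replicate 3 as labelled, 8 of the 10 members kept their call under all 16 other settings, and 48 of the 66 other genes picked by the naming rule did. Psph kept its call under 13 of 16, and Atf4 passed under 5: mean over probes (0.40), slide term (0.45), dye term (0.22), dimmest probe (0.42) and without replicate 3 (0.68). Both conditions share an array and so form a pair on it, and separate channels with no replicate block gave 4544 genes higher and 4742 lower, with 7 members higher and 2 lower. Slide as a random block was not run, because a correlation could not be estimated from slides of 1 and 2 arrays. Probes at the scanner limit limit what can be said of Atf4.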
